A study of Mus musculus with 6 samples.

Results

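Plasma lipoproteins are broken down and remodeled by a small group of secreted enzymes and by the proteins that anchor or inhibit them. The genes followed here were the lipase genes Lpl, Lipc and Lipg, the lipase anchor gene Gpihbp1, the inhibitor genes Angptl4 and Angptl8, the transfer protein gene Pltp and the acyltransferase gene Lcat. They were taken by gene name from the deposited table, which gave 8 of 55401 gene models, and each name matched a single row. All 8 passed the filter of a mean FPKM (fragments scaled by transcript length and by depth) of 0.1 or more, as did 14741 gene models.

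Liver RNA was sequenced from male C57BL/6 mice that were 8 weeks old at the start (n = 3 in each group, and a separate library from each animal). The 9/13-HODEs group was injected intraperitoneally once a day for 9 days with 9-HODE plus 13-HODE in a 1-to-1 mix, 0.5 μg of both together per g of body weight, and the Ctrl group with their PEG400 and water solvent. No genetic change was named for either group. 9-HODE and 13-HODE are hydroxylated products of linoleic acid, and the comparison asked how they alter gene expression in the liver.

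Lipoprotein lipase hydrolyzes the triglycerides of chylomicrons and very low-density lipoproteins on the capillary wall, mostly in fat, muscle and heart, where GPIHBP1 carries it across the endothelium. Hepatic lipase and endothelial lipase act more on remnants and on high-density lipoproteins, and adult hepatocytes make chiefly hepatic lipase. ANGPTL4 and ANGPTL8 act to restrain lipoprotein lipase, the former during fasting and the latter after a meal. PLTP moves phospholipids between lipoproteins, and LCAT forms the cholesterol esters of high-density lipoproteins.

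The counts summed to between 70300597 and 78615288 per library. The hepatocyte markers Alb, Ttr, Apoa1, Serpina1a and Fgb had a summed FPKM of 61380 to 67390 in Ctrl livers and 57060 to 67340 in treated livers, so the tissue label fitted. All 6 adipocyte markers of the list had counts in replicate 1 of the treated livers, against 1 or 2 of the 6 in each other library. A positive log2 fold change means more RNA after 9/13-HODEs, and it comes from edgeR's quasi-likelihood test on the counts, with Benjamini-Hochberg adjustment over all 14741 genes, and means of FPKM carry the SD after ± (n = 3 mice). In bulk liver, fewer cells of a type and less RNA per cell cannot be told apart.

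With edgeR, 0 of the 8 reached an adjusted p of 0.05, where 0.0204% of all tested genes did. DESeq2 also called 0 of the 8 (0.604% of all genes). By unadjusted edgeR p under 0.05, 3 were higher in the treated livers (Gpihbp1, Lipg and Angptl4; 4.08% of all genes) and 0 were lower (3.61% of all genes). The lowest treated liver exceeded the highest Ctrl liver for Gpihbp1, Lipg and Pltp (5.28% of all genes), and in 0 of the 8 did every treated liver lie below (9.82% of all genes). The median log2 fold change of the 8 was 0.38, and that of all genes 0.00. The members are too few, and were chosen with earlier results known, for these shares to be read as particular to them.

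**Figure D1:**
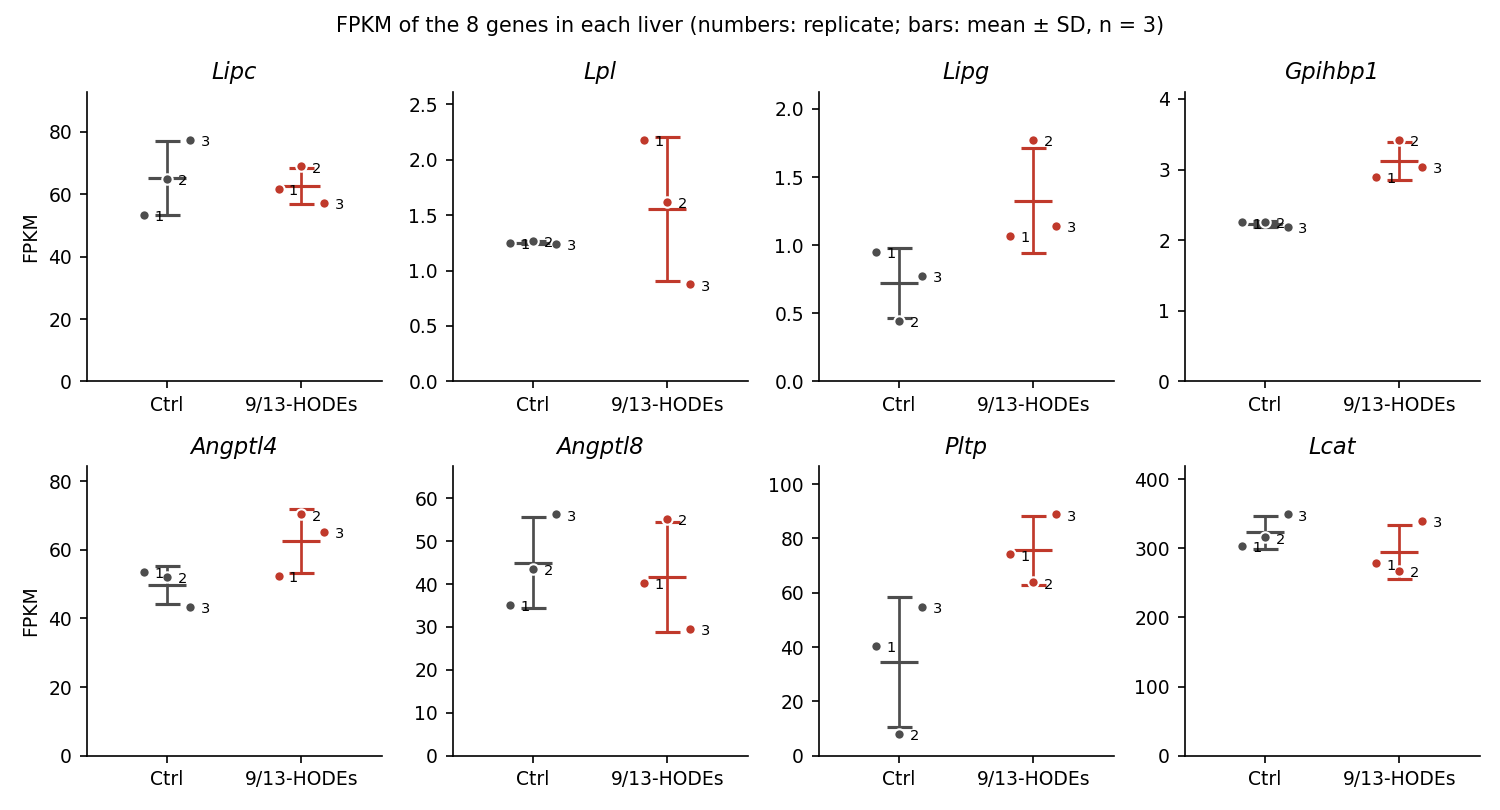
FPKM of the 8 genes (y axis, linear, from 0) in Ctrl and 9/13-HODEs livers (x axis), where points are mice labelled by replicate number and bars are mean ± SD (n = 3). Treated livers lie above all Ctrl livers in Lipg, Gpihbp1 and Pltp, and Ctrl replicate 2 is far below the other livers in Pltp.

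Per length, Lcat was the most abundant of the 8 transcripts, with a mean FPKM over the 6 livers of 309.1, and it ranked 184 among the 14741 tested genes. Lipc (63.97), Angptl4 (56.12), Pltp (55.01) and Angptl8 (43.33) followed, and the ranges of these 4 genes over the livers overlapped. Gpihbp1 (2.674), Lpl (1.404) and Lipg (1.026) were low, and their ranks lay between 5401 and 8184. The FPKM of Gpihbp1 was above that of Lpl in each of the 6 livers, whereas the ranges of Lpl and Lipg overlapped. The lowest count of any member was 166 for Lipg in Ctrl replicate 2, with an exact Poisson 95% interval of 142 to 193 for counting error only.

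Pltp had the widest range of the 8 between mice relative to its level and Lcat the highest level, so the 250 bases before their RefSeq starts are shown (GRCm38.p6, minus strand of each chromosome, read 5′ to 3′). The Pltp stretch is chr2:164857709-164857958 and the Lcat stretch chr8:105943403-105943652. Capitals mark a CCAAT box and a GC box (GGGCGG), both read on the other strand.
Pltp: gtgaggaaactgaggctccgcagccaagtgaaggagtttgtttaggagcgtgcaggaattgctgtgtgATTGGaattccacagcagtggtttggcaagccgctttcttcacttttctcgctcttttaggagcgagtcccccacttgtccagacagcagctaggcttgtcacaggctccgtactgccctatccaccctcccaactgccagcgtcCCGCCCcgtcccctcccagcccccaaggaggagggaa
Lcat: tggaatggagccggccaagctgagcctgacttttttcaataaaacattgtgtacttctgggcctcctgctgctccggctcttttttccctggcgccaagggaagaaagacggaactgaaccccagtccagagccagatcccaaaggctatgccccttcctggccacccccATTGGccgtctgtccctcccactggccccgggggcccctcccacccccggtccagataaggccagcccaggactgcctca

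The first of these boxes in Pltp lies at -182 to -178 and its GC box at -37 to -32 from the RefSeq start, and the single box of Lcat, of the first kind, lies at -80 to -76. Of 32851 RefSeq promoters searched in the same way on both strands, 33.8% hold the former and 32.7% the latter. A TATAAA, the E box CACGTG and direct AGGTCA repeats spaced by 1 or 4 bases, to which nuclear receptors bind, were also searched, and these letters are in neither stretch (12.4%, 6.02%, 0.0335% and 0.0152% of promoters hold them). RefSeq windows were taken for 4 of the 8 genes, the others being those of Angptl8 and, with 2 starts, Lipc. No window on chromosome 18, where Lipg lies, was taken.

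Hepatic lipase was by far the main lipase transcript, and its level did not separate the groups. Lipc (ENSMUSG00000032207), on chromosome 9 from 70798128 to 70952226 (coordinates as in the deposited table), reached FPKM values of 53.41, 65.04 and 77.35 in Ctrl mice and 61.68, 68.99 and 57.37 in treated mice. The treated livers all lay within the Ctrl range. Its log2 fold change was 0.01 (standard error 0.13), with a 95% interval of the fold from 0.807 to 1.25. The sign of this value turned in other settings. It was -0.07 with total counts alone in edgeR and -0.13 under TPM scaling, which was fitted by limma-trend.

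Of the summed FPKM of Lipc, Lpl and Lipg, Lipc made up 96.0%, 97.4% and 97.5% in Ctrl mice and 95.0%, 95.3% and 96.6% in treated mice. The share of Lipg, examined after the values were seen, was 1.71%, 0.667% and 0.979% in Ctrl mice and 1.65%, 2.45% and 1.93% in treated mice. Ctrl replicate 1 thus overlapped the treated livers in both shares. The mean difference was -1.34 percentage points for Lipc and 0.886 for Lipg (two-sided exact permutation test, p = 0.2 for each, where 3 mice against 3 cannot give less than 0.1). The mean share of Lpl was 1.9% ± 0.341 in Ctrl livers and 2.35% ± 0.944 in treated livers (two-sided exact permutation test, p = 0.7).

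Lipg was higher in the treated livers without reaching the adjusted threshold. It encodes endothelial lipase, a phospholipase of high-density lipoproteins, and lies (ENSMUSG00000053846) on chromosome 18 from 74939322 to 74961263. Its FPKM was 0.952, 0.445 and 0.777 in Ctrl mice and 1.07, 1.77 and 1.14 in treated mice, from 166 to 364 and from 396 to 703 counts. The groups did not overlap, but the gap between the highest Ctrl liver and the lowest treated liver was narrow. The fitted log2 fold change was 0.93 (standard error 0.31, 95% interval 0.18 to 1.68, unadjusted p = 0.0218 and adjusted p = 0.649 by edgeR). For calling a gene the methods of the study state only a fold limit, 0.65 on the log2 scale in either direction. The log2 ratio of the mean FPKM values was 0.87 for Lipg and 1.13 for Pltp, so 2 of the 8 were past that limit as higher and 0 as lower (6.45% and 8.24% of all genes). A stricter rule set here, with 0.1 added to each mean and an unadjusted p under 0.05 asked for as well, kept Lipg alone (1.49% of all genes as higher and 1.62% as lower). Without replicate 2 of the treated livers the unadjusted edgeR p of Lipg was 0.0764, and its log2 ratio was 0.61, under the limit. Over the 15 alternative settings, 11 gave Lipg an unadjusted p under 0.05.

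The level of Lpl varied widely among the treated livers, with no shift shared by all of them. The gene (ENSMUSG00000015568) lies on chromosome 8 from 68880491 to 68906934. FPKM values were 1.25, 1.27 and 1.24 in Ctrl mice and 2.18, 1.62 and 0.877 in treated mice. The Ctrl livers were nearly equal, and the treated livers lay on both sides of them. The SD was 0.0131 in Ctrl and 0.652 in treated livers, although a difference in spread was not tested. Its log2 fold change was 0.36 (standard error 0.29, 95% interval -0.32 to 1.05, unadjusted p = 0.249 and adjusted p = 0.773 by edgeR).

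The treated liver with the most Lpl was the only library with counts of the adipocyte markers Adipoq, Plin1 and Lep. Adipoq, the adiponectin gene, had 63 counts in treated replicate 1 but 0 in the other 5 libraries. The lipid droplet coat gene Plin1 had 38 and the leptin gene Lep 4 counts in that library and 0 in the others, and the resistin gene Retn had 61 there, 8 and 10 in the other treated livers and 0 in the Ctrl livers. The remaining markers did not single out that library, since Cidea had 12 counts in it and 12 in Ctrl replicate 2, and Cfd, the adipsin gene, had 44 to 260 counts in Ctrl and 138 to 387 in treated livers. The summed FPKM of the 6 markers was 0.582 to 3.47 in Ctrl and 1.82 to 6.18 in treated livers. Most of that sum was Cfd in every library, at 0.582 to 3.47 and 1.77 to 4.86, so it says little on the other markers. Without replicate 1 of the treated livers the log2 fold change of Lpl was 0.05, and without replicate 3 it was 0.63 (unadjusted p = 0.0134 and adjusted p = 0.720 by edgeR). The part of adipocyte RNA in the level of Lpl was not tested.

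Gpihbp1 had the smallest unadjusted p of the 8. It encodes the endothelial protein that binds lipoprotein lipase and shuttles it to the capillary lumen, and lies (ENSMUSG00000022579) on chromosome 15 from 75596628 to 75598213. Its FPKM was 2.25, 2.26 and 2.18 in Ctrl mice and 2.89, 3.41 and 3.04 in treated mice. Each treated liver was above each Ctrl liver, by a gap wider than the spread within Ctrl. Its log2 fold change was 0.54 (standard error 0.14), a fold of 1.45 with a 95% interval of 1.15 to 1.83 (unadjusted p = 0.00695 and adjusted p = 0.649 by edgeR). Leaving out any 1 library gave 0.50 to 0.60, and the unadjusted p was under 0.05 in all 15 alternative settings. The exact permutation test of mean FPKM gave p = 0.1 for Gpihbp1, Lipg and Pltp, the lower limit for groups of 3 (two-sided).

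Some endothelial markers lay in the same direction as Gpihbp1. Of 7 such markers, 6 had a log2 fold change above 0 (median 0.27), where 50.1% of all genes did, and 0 passed the adjusted threshold by edgeR. Above 0 were also 5 of 5 stellate cell markers (median 0.20), 3 of 4 of cholangiocytes (0.31) and 4 of 6 of Kupffer cells (0.15). Of the hepatocyte markers 3 of 5 were above 0 (0.01), and of the tested blood cell markers 1 of 3 (-0.08). Lyve1, a hyaluronan receptor of sinusoidal and lymphatic endothelium, had an FPKM of 0.452, 0.300 and 0.700 in Ctrl mice and 0.801, 1.15 and 0.908 in treated mice (log2 fold change 1.06, unadjusted p = 0.0145 by edgeR). The values of the sinusoidal scavenger receptor gene Stab2 and of the adhesion gene Pecam1 overlapped between groups (log2 fold changes 0.40 and 0.35). The angiopoietin receptor family gene Tie1 did not overlap (0.27), while the lectin gene Clec4g stood at 0.05 and the VEGF receptor gene Kdr at -0.08. The summed FPKM of the 7 markers was 23.41 to 28.02 in Ctrl and 23.83 to 32.29 in treated livers, and no marker of the list was at 0. Most of that sum was Clec4g, at 16.47 to 19.40 in Ctrl and 15.76 to 21.05 in treated livers. The part of the 7 markers in the levels of Gpihbp1 and Lipg was not tested.

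**Figure D2:**
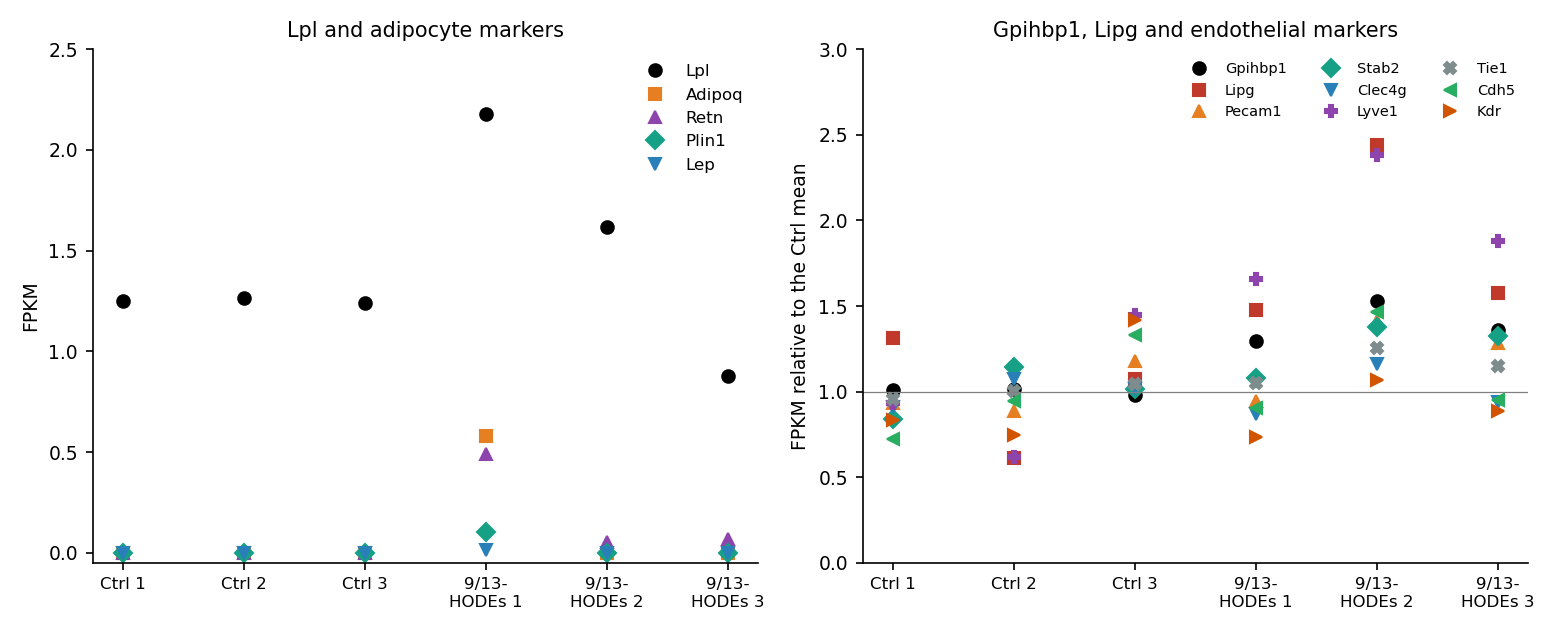
Left, FPKM (y axis) of Lpl and of 4 adipocyte markers in each of the 6 livers (x axis), where replicate 1 of the treated livers has both the highest Lpl and the only counts of Adipoq. Cfd and Cidea of the same marker list did not single out that liver and are not drawn. Right, FPKM relative to the Ctrl mean (y axis) of Gpihbp1, Lipg and 7 endothelial markers, where each point is a liver and Gpihbp1 is above 1 in the 3 treated livers.

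Of the inhibitors, Angptl4 was slightly higher in the treated livers and Angptl8 varied without regard to group. Angptl4 (ENSMUSG00000002289), on chromosome 17 from 33773750 to 33781830, is a PPAR target that is induced by fatty acids and fasting. Its FPKM was 53.47, 52.19 and 43.40 in Ctrl mice and 52.33, 70.26 and 65.09 in treated mice. Replicate 1 of the treated livers lay among the Ctrl livers and the other treated livers above them. The log2 fold change was 0.39 (standard error 0.16, 95% interval 0.01 to 0.78, unadjusted p = 0.0449 and adjusted p = 0.649 by edgeR). It stayed positive in all 15 alternative settings, at 0.24 to 0.51, but the unadjusted p was over 0.05 in 10 of them and ranged from 0.0155 to 0.125.

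Angptl8 (ENSMUSG00000047822), a gene induced by insulin and feeding on chromosome 9 from 21835510 to 21837347, reached FPKM values of 35.21, 43.48 and 56.21 in Ctrl mice and 40.31, 55.16 and 29.60 in treated mice. Both groups spanned nearly the same range. The log2 fold change was -0.05 (standard error 0.23, 95% interval of the fold 0.660 to 1.41), and it was 0.10 without Ctrl replicate 3 and 0.11 without replicate 3 of the treated livers. The whole gene lies inside Dock6 on the opposite strand. Dock6 had 505 to 886 counts, fewer than Angptl8 in every library, and a log2 fold change of 0.55 (unadjusted p = 0.00364 by edgeR). Whether strand was used in counting is not given in the sources used here.

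Pltp had the largest fold of the 8 and, relative to its mean, the widest spread in Ctrl livers. The gene (ENSMUSG00000017754) lies on chromosome 2 from 164839518 to 164857633. Its FPKM was 40.48, 8.08 and 54.75 in Ctrl mice and 74.11, 63.81 and 88.83 in treated mice. The treated livers were all above the Ctrl livers, and Ctrl replicate 2 stood well below the other 5. That low value rested on 1621 counts (exact Poisson 95% interval 1540 to 1700), against 8407 and 11506 in the other Ctrl livers. The log2 fold change was 1.24 (standard error 0.60, 95% interval -0.19 to 2.66, unadjusted p = 0.0785 and adjusted p = 0.676 by edgeR).

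The fold of Pltp depended on which Ctrl livers were included. Without Ctrl replicate 2 the log2 fold change was 0.78 (unadjusted p = 0.0142 and adjusted p = 0.642 by edgeR), and without Ctrl replicate 3 it was 1.70 (unadjusted p = 0.0463 by edgeR). The coefficient of variation of Pltp in Ctrl livers was 69.5%, and 3.10% of the 8253 genes whose mean FPKM was 1 or more had a larger one there, the median being 13.2%. Ctrl replicate 2 was not alone in having such low values. Of 2469 genes whose mean FPKM was 10 or more, 19 in that library were below the lower of the other 2 livers of the group divided by 3, and the number was 9 to 19 over the 6 libraries. Pltp shares 502 bases at its 3′ end with the cathepsin A gene Ctsa on the opposite strand. Ctsa had 15140, 13313 and 14559 counts in Ctrl mice and 17133, 17532 and 20177 in treated mice (log2 fold change 0.37, unadjusted p = 0.0117 by edgeR), and was not low in Ctrl replicate 2 to the same extent.

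Lcat, the most abundant of the 8, did not separate the groups. On chromosome 8 from 105939551 to 105943382, it (ENSMUSG00000035237) had an FPKM of 304.2, 315.8 and 349.1 in Ctrl mice and 278.3, 267.5 and 339.8 in treated mice. Replicates 1 and 2 of the treated livers were below the Ctrl livers and replicate 3 was among them. The log2 fold change was -0.05 (standard error 0.15), with a 95% interval of the fold from 0.755 to 1.23 (unadjusted p = 0.722 by edgeR). Without replicate 3 of the treated livers it was -0.22, and without replicate 2 it was 0.04.

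**Figure D3:**
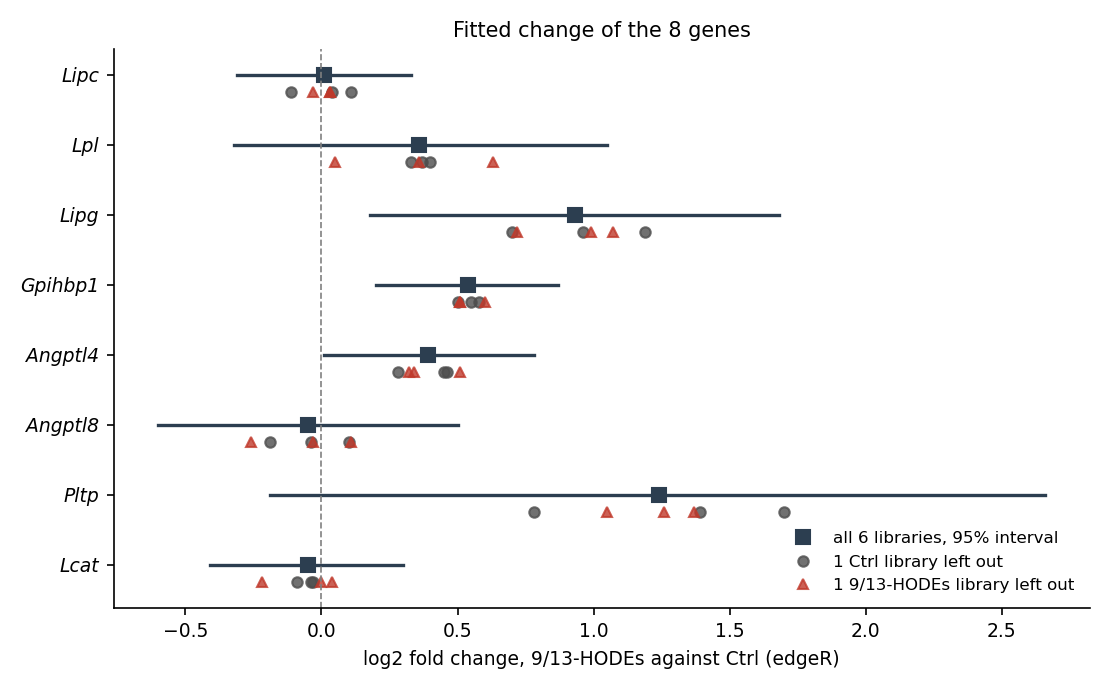
Log2 fold change of 9/13-HODEs against Ctrl by edgeR (x axis) for the 8 genes (y axis), where squares with lines are the fit of all 6 libraries with its 95% interval and the small symbols are fits without 1 library. Gpihbp1 stays between 0.50 and 0.60 when any library is left out, whereas Pltp ranges from 0.78 to 1.70 and Lpl from 0.05 to 0.63.

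The transcripts around these enzymes were then examined as lists. Of the 5 other angiopoietin-like genes, 4 were tested and 3 of them had positive log2 fold changes (50.1% of all genes). By edgeR 0 passed the adjusted threshold, and the median was 0.31. Angptl6, a secreted hepatic factor, had an FPKM of 12.7 ± 1.43 in Ctrl and 15.3 ± 1.11 in treated livers (log2 fold change 0.33, unadjusted p = 0.0324 by edgeR). Angptl2, a proinflammatory member of the family, had 1.59 ± 0.245 and 1.92 ± 0.0417 (0.35, unadjusted p = 0.0398 by edgeR). In both genes, which were named for their small p, every treated liver lay above the Ctrl livers (5.28% of all genes).

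All 10 plasma cofactors and inhibitors of the lipases, a list made up mainly of apolipoproteins, had positive log2 fold changes by edgeR with TMM scaling, where 50.1% of all genes did, but 9 did with total counts alone and 8 under TPM scaling. Apoa1, the main protein of high-density lipoproteins, stood at 0.01, and at -0.13 under TPM scaling. Their median was 0.43, or 0.28 under TPM scaling, which moved the median of all genes to -0.14. By edgeR 0 passed the adjusted threshold and 1 was higher by an unadjusted p under 0.05 (4.08% of all genes). That gene, Apoa4, an apolipoprotein that promotes triglyceride export, had an FPKM of 149.7, 125.9 and 151.9 in Ctrl mice and 194.8, 228.7 and 190.4 in treated mice, without overlap (log2 fold change 0.59, adjusted p = 0.415 by edgeR). Apoe, a ligand of remnant receptors, had 4416 ± 177 and 6260 ± 1858 (0.56, unadjusted p = 0.0508 by edgeR). The lipoprotein lipase activator gene Apoc2, named after its values were seen, reached 228.3 in replicate 1 of the treated livers but 30.42 in replicate 2, below the Ctrl range of 32.48 to 61.63. Its counterpart Apoc3, which inhibits lipoprotein lipase and was likewise named afterwards, did not overlap, with 2733 to 4750 in Ctrl and 4994 to 5330 in treated livers.

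Of 9 genes for the maturation and cleavage of the lipases and their inhibitors, 0 passed the adjusted threshold by edgeR (median -0.06). By unadjusted p 2 were lower (3.61% of all genes) and 0 were higher (4.08% of all genes). The chaperone gene Canx had an FPKM of 20.4 ± 2.63 in Ctrl and 16.3 ± 0.887 in treated livers (log2 fold change -0.25, unadjusted p = 0.0319 by edgeR). Pcsk6, a proprotein convertase that can cleave lipases, had 12.8 ± 1.80 and 9.88 ± 0.964 (-0.30, unadjusted p = 0.0432 by edgeR). Lmf1, the endoplasmic reticulum factor needed to fold these lipases, stood at 4.54 ± 0.543 and 4.50 ± 0.503 and was named after its values were seen.

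Among 13 receptors and efflux genes of lipoprotein uptake, 12 were tested, 0 passed by adjusted or by unadjusted p, and the median was 0.03. The smallest p values were those of Cd36, a fatty acid transporter (log2 fold change 1.10, unadjusted p = 0.0724 by edgeR), and Sdc1, a heparan sulfate proteoglycan that binds remnants (-0.30, unadjusted p = 0.0959 by edgeR). The FPKM of Cd36 was 0.481, 0.502 and 1.075 in Ctrl mice and 2.35, 0.701 and 1.11 in treated mice, so the groups overlapped. The highest value was that of replicate 1 of the treated livers, the only liver with counts of Adipoq, Plin1 and Lep. The part of adipocyte RNA in the level of Cd36 was not tested. The study reported a rise of this transcript by RNA sequencing of these livers and by quantitative PCR in treated livers. By quantitative PCR it also reported a rise in primary hepatocytes given 13-HODE.

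Of 13 transcription regulators known for the 8 genes, 2 were higher by unadjusted p (4.08% of all genes) and 0 were lower (3.61% of all genes). By edgeR 0 passed the adjusted threshold, and the median was 0.07. Ppard, a fatty acid receptor that induces Angptl4, had an FPKM of 0.454 ± 0.0550 in Ctrl and 0.620 ± 0.0253 in treated livers (log2 fold change 0.51, unadjusted p = 0.0218). Nr1h4, the bile acid receptor FXR and a regulator of Pltp, had 49.6 ± 2.95 and 56.3 ± 0.848 (0.25, unadjusted p = 0.0219 by edgeR). In both genes, which were named for their small p, every treated liver lay above the Ctrl livers (5.28% of all genes).

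The other lipase genes were mostly under the FPKM filter, and 2 of 11 were tested. Pla1a, a phosphatidylserine phospholipase of the same family, had an FPKM of 21.8 ± 1.17 in Ctrl and 19.9 ± 1.95 in treated livers, and the lysosomal lipase gene Lipa had 12.3 ± 2.62 and 10.9 ± 0.399. Of 9 genes of lipid transfer and cholesterol ester metabolism, 7 were tested and 1 was higher by unadjusted p (4.08% of all genes). This was the acyltransferase gene Soat1 (0.109 ± 0.0281 and 0.169 ± 0.0388, log2 fold change 0.70, unadjusted p = 0.0411 by edgeR). Pla2g7, which encodes the plasma platelet-activating factor hydrolase, had 0.377 ± 0.125 and 0.531 ± 0.0803 (0.56, unadjusted p = 0.140 by edgeR). By edgeR 0 genes of these lists passed the adjusted threshold.

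**Figure D4:**
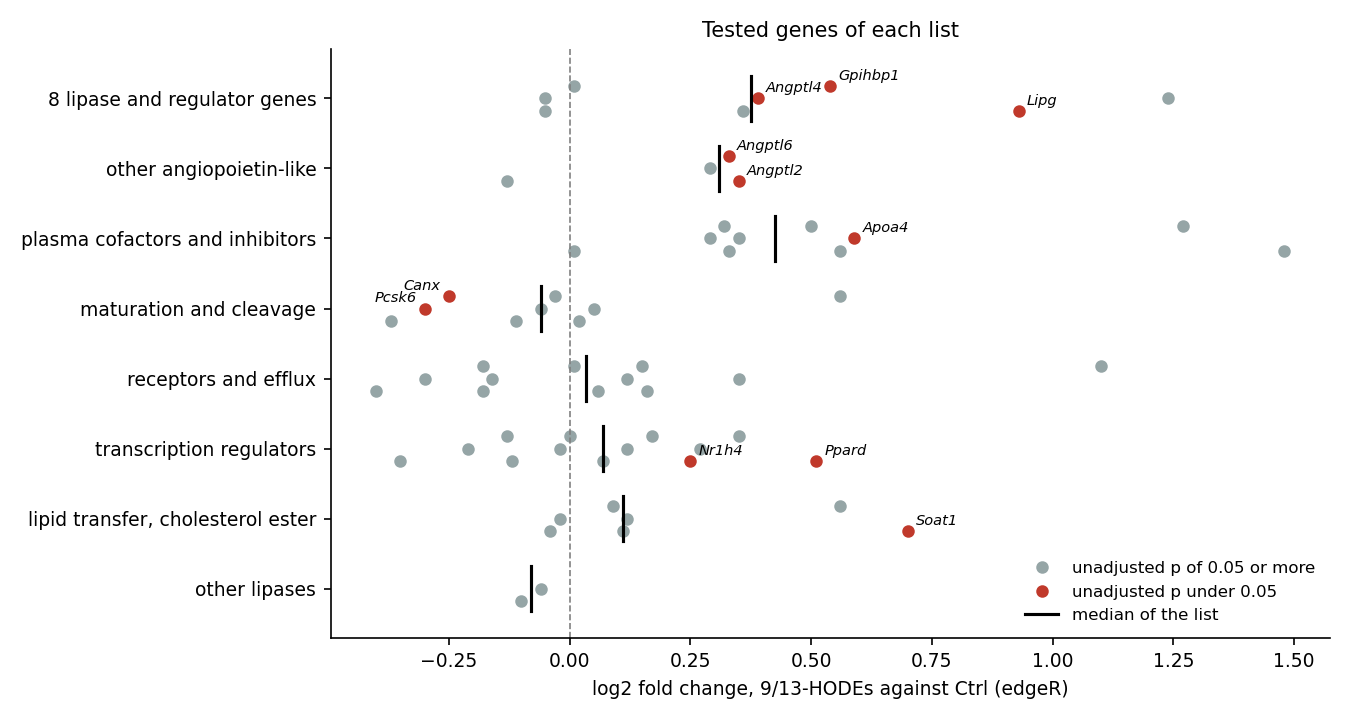
Log2 fold change of 9/13-HODEs against Ctrl by edgeR (x axis) of each tested gene in 8 lists (y axis), where points are genes, red marks an unadjusted p under 0.05 and black lines are medians. All 10 plasma cofactors and inhibitors lie to the right of 0 (8 of them under TPM scaling), with a median of 0.43, and 0 genes of the lists passed an adjusted p of 0.05.

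Finally, the genes most similar in profile were sought by Pearson r of log2(FPKM + 0.1) over the 6 livers, among genes whose mean FPKM was 1 or more. Nearest to Gpihbp1 were the MHC class II gene H2-Eb1 (r = 0.995), Ccs (0.988) and Snhg12 (0.987). To Lipg they were Gdf2 (0.985), which encodes BMP9 of hepatic stellate cells, Hnf1aos1 (0.98) and the transaminase gene Gpt2 (0.98), and to Pltp the reductase gene Cyb5r3 (0.994), Gm32468 (0.991) and Ropn1l (0.982). Angptl4 was nearest to Sox6os (0.993), Gpr137 (0.988) and Hnmt (0.987), and Angptl8 to Gm10591 (0.987), Pum2 (0.984) and Polr2c (0.982). Lpl was nearest to Wdr5 (0.998), Vps39 (0.994) and Gm13552 (0.991), Lipc to Ankrd13a (0.995), Kansl3 (0.983) and Sp3 (0.982), and Lcat to Tmbim6 (0.982), Katna1 (0.978) and Leng1 (0.975). With only 6 livers, between 9 and 32 of the other 8252 genes reached an r of 0.95 with each member, and the libraries and their depth are shared, so these values describe the livers and no test was made.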

How the data were processed

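The table deposited by the authors holds, per gene model and library, whole-number counts that are not normalized and FPKM values scaled by length and depth. The submitters' processing notes list, with no role for any, StringTie 1.3.4d, HISAT2 2.0.4, cutadapt 1.9, edgeR, DESeq2 and UMI-tools. The genome build and the strand setting of counting are not given in the sources used here. Libraries held 70300597 to 78615288 counts, and intervals from counts cover counting error only.

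Genes of mean FPKM 0.1 or more (14741) were tested with edgeR 4.0.16 in R 4.3.3 (TMM, quasi-likelihood test, Benjamini-Hochberg adjustment, threshold 0.05). DESeq2 1.42.0, limma-trend (limma 3.58.1) on log2(FPKM + 0.1) or log2(FPKM + 1), TPM scaling (limma-trend on log2(TPM + 0.1)), other filters, total counts, omitted libraries and a replicate block were alternatives. Fits were tested on simulated counts. Standard errors are the absolute log2 fold change divided by the root of F. The RNA sequencing methods of the study state a fold threshold alone. A rule that adds the p threshold of 0.05 from its statistics section is given beside it. The members and lists were chosen with earlier results of these data known. Beside the members, the genes named are those of each list with an unadjusted p under 0.05, or else the 2 of smallest p, and the 3 most like each member. Cell type markers, overlapping genes, Apoa1, Apoc2, Apoc3 and Lmf1 were named outside this rule, after their values were seen. The labels number the samples within each group, and the study gives n = 3 mice per group. The edgeR p-values rest on the spread between these mice, moderated over all tested genes. The values of 1 gene of the lists are not reported here.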

Additional observations from a re-analysis of the deposited data

How the results depend on the processing

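No member passed an adjusted p of 0.05 under any of the 15 alternatives to the edgeR fit, the lowest adjusted p being 0.154 over all 120 values. Direction held in 111 of these and turned in 9, all of them of Lipc, Angptl8 or Lcat, whose fold changes were near 0. For Lipc the log2 fold change was -0.07 with total counts without TMM, -0.05 with limma-trend on log2(FPKM + 0.1) and also on log2(FPKM + 1), -0.13 under TPM scaling, and -0.11 to 0.11 when 1 library was left out. That range was -0.26 to 0.11 for Angptl8 and -0.22 to 0.04 for Lcat. Under TPM scaling, which was fitted by limma-trend, 1 member in place of 3 had an unadjusted p under 0.05. With limma-trend on either FPKM scale 2 members did. Leaving out 1 library in edgeR gave 1 (without replicate 2 of the treated mice) to 3. By the fold of the methods alone, a setting added after the data were seen, 2 members passed, 1 with a pseudocount of 1 and 1 to 2 without 1 library. With the added limit of an unadjusted p under 0.05, a pseudocount of 1 left 0 members in place of 1, and leaving out 1 library left 0 to 1. TPM scaling, which lowered the median of all genes to -0.14, moved the list medians to 0.28 for plasma cofactors, -0.19 for maturation, -0.10 for receptors, -0.07 for transcription regulators, -0.23 for other lipases, 0.16 for other angiopoietin-like genes and -0.04 for lipid transfer genes. With 1 library left out the medians ranged from 0.40 to 0.53 for plasma cofactors, from -0.09 to 0.00 for maturation and from -0.09 to 0.07 for receptors. The cause of these shifts was not tested.

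Replicate numbers are shared between the groups, but nothing in the labels ties same-numbered mice, and the correlations of their deviations were 0.00712, -0.0277 and -0.0377, with 2 of 6 libraries correlating best with their own number. With the replicate block, the log2 fold changes were 0.28 for Lpl, 0.96 for Lipg, 0.54 for Gpihbp1 and 1.56 for Pltp, 0 members passed the adjusted threshold, and 0 genes in all did, in place of 3. With 3 mice per group and a common coefficient of variation of 0.36, the interval of each fold change limits what can be seen, and for Pltp it spans 0.879 to 6.32-fold.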
